A study of Mus musculus with 7 samples.

Results

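The mRNAs of 10 crystallin genes were compared in the retina of WT mice and of mice with spinocerebellar ataxia type 7 (SCA7). The genes were *Cryaa* and *Cryab* (alpha crystallins), *Cryba1*, *Cryba2*, *Cryba4*, *Crybb1*, *Crybb2* and *Crybb3* (beta crystallins), and *Crygs* and *Crygn* (gamma S and gamma N crystallin). They were listed by their symbols, with earlier results of these data known. They are 10 of the 52550 genes of the count table, and all 10 passed the filter on low counts that 20128 genes passed.

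The study sequenced total RNA of retina from 4 WT and 3 SCA7 mice of 12.5 weeks, all of strain C57BL/6J, with no treatment named. SCA7 mice were homozygous for a knock-in allele of *Atxn7* that codes for 140 glutamines and is driven by the promoter of *Atxn7* itself, in all cells that use it. Both retinas of a mouse were pooled, and each mouse gave 1 library. The comparison of SCA7 with WT asked which mRNAs differ in the diseased retina. Reads came from dissected retina without sorting of cells, so fewer cells of a type and less RNA per cell cannot be told apart.

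Crystallins are the main soluble proteins of the lens, where they are packed at very high concentration in the elongated lens fibre cells and give the lens its refractive power. The alpha crystallins belong to the small heat shock proteins and keep unfolded proteins from aggregating, while the beta and gamma crystallins are structural proteins of a superfamily of their own. Crystallin mRNAs and proteins, those of alpha B above all, are also known from neurons and Müller glia of the retina. The lens and the retina lie in the same eye and are separated by hand in a dissection.

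Total counts per library were between 56497675 and 96635832. Markers of rods, the main cells of the mouse retina, were high in all libraries, with *Gnat1*, the alpha subunit of rod transducin, at a mean of 10218 CPM in WT (SD 360, n = 4) and 3016 CPM in SCA7 retina (SD 474, n = 3). CPM are counts scaled to library size with TMM factors. All 8 rod genes were downregulated, and 6 of 7 reactive glia genes were upregulated. A call needed an adjusted p under 0.05 in edgeR's quasi-likelihood test (Benjamini-Hochberg) together with a fold change (FC, SCA7/WT) below 0.7 for downregulated genes or above 1.3 for upregulated genes.

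The genes are spread over 6 chromosomes, and 4 of the beta crystallin genes lie in neighbouring pairs on chromosome 5. *Cryba4* and *Crybb1* start 3297 bp apart and are transcribed away from each other, and *Crybb2* and *Crybb3* lie 5722 bp apart on the same strand. The 250 bases before the start are shown for both genes of the first pair, for *Crybb2*, which had the highest level of the beta crystallins, and for *Cryba1*, which held 3 of the motifs searched. They come from RefSeq on GRCm38.p6, which gave a promoter for 9 of the 10 genes, and are written 5′ to 3′ on the strand of the gene. Capitals mark the motifs, which are the Maf motif TGCTGA (a core of the Maf recognition element) or its reverse complement TCAGCA, the heat shock element cores GAANNTTC and TTCNNGAA, the homeobox site TAATCC and the TATA box TATAAA, all searched on both strands. Both heat shock cores read the same on either strand. The windows are chr5:112252519-112252768 (minus strand) for *Cryba4*, chr5:112255570-112255819 (plus strand) for *Crybb1*, chr5:113070118-113070367 (minus strand) for *Crybb2* and chr11:77725294-77725543 (minus strand) for *Cryba1*.
Cryba4: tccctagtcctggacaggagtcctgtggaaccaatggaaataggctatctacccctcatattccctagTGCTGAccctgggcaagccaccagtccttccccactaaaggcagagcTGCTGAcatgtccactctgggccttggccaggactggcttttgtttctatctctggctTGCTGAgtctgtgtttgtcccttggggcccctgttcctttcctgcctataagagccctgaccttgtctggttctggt
Crybb1: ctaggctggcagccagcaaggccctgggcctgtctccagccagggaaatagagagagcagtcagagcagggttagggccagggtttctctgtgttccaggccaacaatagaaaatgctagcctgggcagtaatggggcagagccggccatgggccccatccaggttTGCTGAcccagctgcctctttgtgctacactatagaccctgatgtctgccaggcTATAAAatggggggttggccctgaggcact
Crybb2: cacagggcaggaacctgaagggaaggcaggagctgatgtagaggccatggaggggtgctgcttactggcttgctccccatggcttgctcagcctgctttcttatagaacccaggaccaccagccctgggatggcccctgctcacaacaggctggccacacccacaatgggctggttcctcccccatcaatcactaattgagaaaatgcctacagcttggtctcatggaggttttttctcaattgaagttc
Cryba1: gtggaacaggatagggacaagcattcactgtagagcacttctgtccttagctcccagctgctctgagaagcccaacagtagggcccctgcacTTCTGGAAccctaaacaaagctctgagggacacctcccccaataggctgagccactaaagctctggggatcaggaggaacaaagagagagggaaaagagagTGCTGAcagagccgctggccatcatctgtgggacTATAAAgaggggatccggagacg

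The Maf motif was found in 8 of the 9 promoters, those of *Cryaa*, *Cryba1*, *Cryba2*, *Cryba4*, *Crybb1*, *Crybb3*, *Crygs* and *Crygn*, beside 16.1% of 32841 promoters of the same length. *Cryba4* held it 3 times, at 182, 135 and 77 bases before the start, and *Crybb2* did not hold it. Maf proteins are transcription factors known to act on crystallin genes in lens. The TATA box was found in 3 of the 9 promoters (*Cryba1*, *Crybb1* and *Crygs*) beside 12.4% of all, and the homeobox site, of the kind read by CRX in photoreceptors, in that of *Crygs* alone beside 6.25%. The heat shock core TTCNNGAA was found once among the 9 promoters, in *Cryba1*, beside 7.17% of all, and GAANNTTC in none of the 9 beside 6.7%. A match of letters is a description of the window and does not show that a factor binds it.

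*Cryaa* (ENSMUSG00000024041, chr17:31677807-31681733, plus strand) codes for alpha A crystallin, the chaperone that in mammals is most abundant in lens. It was at 82.4, 319, 217 and 25.3 CPM in WT replicates 1 to 4 and at 301, 493 and 16.7 CPM in SCA7 replicates 1 to 3. The highest and the lowest library were both SCA7, 29.6-fold apart, and the WT libraries lay 12.6-fold apart between them. The WT mean was 161 ± 132 CPM (SD, n = 4) and the SCA7 mean 270 ± 239 CPM (SD, n = 3), and the SCA7 range enclosed the WT range.

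*Cryab* (ENSMUSG00000032060, chr9:50751325-50756636, plus strand) codes for alpha B crystallin, a stress-induced chaperone that many tissues express. It was at 43.8, 93.5, 74.7 and 33.2 CPM in WT and at 97.9, 140 and 34.5 CPM in SCA7 retina. The same libraries were high and low as for *Cryaa*, but the highest was 4.22-fold above the lowest, the narrowest range of the 10 genes. The mean was 61.3 ± 27.8 CPM (SD, n = 4) in the WT and 90.9 ± 53.2 CPM (SD, n = 3) in the SCA7 mice.

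Of the 6 beta crystallins, *Crybb2* (ENSMUSG00000042240, chr5:113058258-113070117, minus strand) had the highest counts. It was at 54.3, 210, 138 and 17.0 CPM in WT and at 211, 358 and 12.8 CPM in SCA7 retina. *Cryba1* (ENSMUSG00000000724, chr11:77718615-77725283, minus strand), which codes for the beta A3 and beta A1 chains, was at 31.6, 127, 86.9 and 9.67 CPM in WT and at 130, 218 and 7.72 CPM in SCA7 retina. For both genes SCA7 replicate 2 was the highest library, SCA7 replicate 3 the lowest and WT replicate 4 the next lowest.

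*Cryba4* (ENSMUSG00000066975, chr5:112246493-112252518, minus strand) was at 13.9, 52.7, 35.7 and 4.21 CPM in WT and at 43.2, 80.5 and 2.90 CPM in SCA7 retina. Its neighbour *Crybb1* (ENSMUSG00000029343, chr5:112255815-112269585, plus strand) was at 6.29, 25.5, 14.9 and 2.86 CPM in WT and at 23.2, 43.1 and 1.76 CPM in SCA7 retina. Both genes of the pair code for structural beta crystallins, and they were high and low in the same libraries. WT replicate 2 exceeded SCA7 replicate 1 for both. These 2 libraries were nearly equal for *Crybb2* (210 and 211 CPM) and for *Cryba1* (127 and 130 CPM).

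*Cryba2* (ENSMUSG00000006546, chr1:74889934-74893143, minus strand) was at 12.2, 44.4, 32.1 and 3.46 CPM in WT and at 40.2, 73.0 and 2.97 CPM in SCA7 retina. *Crybb3* (ENSMUSG00000029352, chr5:113075839-113081584, minus strand) was at 8.13, 29.8, 20.3 and 2.68 CPM in WT and at 26.9, 53.6 and 2.74 CPM in SCA7 retina. The lowest library was WT replicate 4 for *Crybb3*, as for *Cryab* and *Crygn*, and SCA7 replicate 3 for the other 7 genes.

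*Crygs* (ENSMUSG00000033501, chr16:22805203-22811577, minus strand) codes for gamma S crystallin, the gamma crystallin of the outer, later formed lens fibres. It was at 24.6, 89.5, 60.8 and 6.52 CPM in WT and at 80.5, 142 and 4.74 CPM in SCA7 retina, a range of 30.0-fold. *Crygn* (ENSMUSG00000038135, chr5:24751003-24758008, minus strand) codes for gamma N crystallin, which is known from retina as well as lens. It had 22, 36, 21 and 6 counts in WT and 28, 67 and 11 counts in SCA7 retina, which is 0.092 to 0.785 CPM. At these counts the order of the middle libraries is within counting error, while the highest and the 2 lowest libraries were those of the other members.

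**Figure D1:**
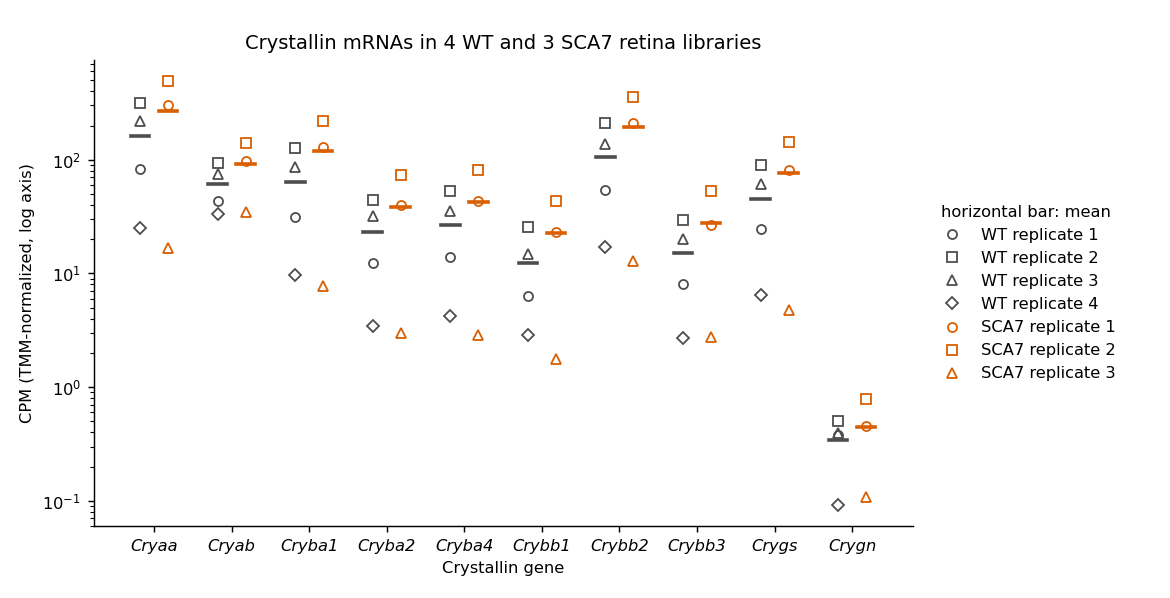
CPM (TMM-normalized, log axis) of the 10 crystallin genes in each library, with WT in grey, SCA7 in orange, the replicate by symbol and the mean of a genotype as a bar. Each gene runs from WT replicate 4 and SCA7 replicate 3 at the bottom to SCA7 replicate 2 at the top, with *Cryaa* between 16.7 and 493 CPM and *Cryab* between 33.2 and 140 CPM.

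The 10 genes varied together from mouse to mouse. All 10 were highest in SCA7 replicate 2 and had their 2 lowest values in WT replicate 4 and SCA7 replicate 3, a pattern that 0.502% of all genes tested showed. The full order of the 7 libraries in *Cryaa* was also that of 5 of the 10 genes, *Cryaa* included, beside 0.0795% of all genes. The points of this comparison share their libraries and scaling. Together the 10 genes took 0.0266%, 0.0949%, 0.0606% and 0.0102% of all counts in WT replicates 1 to 4 and 0.104%, 0.173% and 0.00926% in SCA7 replicates 1 to 3. The 95% Wilson intervals were 0.172% to 0.174% in the highest and 0.00907% to 0.00945% in the lowest library, and they cover counting error only.

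The spread between mice of a genotype was among the widest in the table. It is given as the SD of log2(CPM + 0.5) within genotype, pooled over WT and SCA7. It was 2.08 for *Cryaa*, 2.05 for *Crygs*, 2.03 for *Crybb2*, 0.84 for *Cryab* and 0.43 for *Crygn*, beside a median of 0.12 over all genes tested. The value of *Crygn* is held down by the 0.5 CPM added, which exceeds its mean in WT, and was 1.22 with 0.01 CPM added. Of the 20128 genes, 4 varied more than *Cryaa*, and *Crygb* and *Crygc* of the gamma crystallin cluster were among the 4. Among the 50 genes with the largest SD of the 14720 with a mean of at least 1 CPM, 9 were members, which is every member at that level, 3 were genes of the cluster *Cryga* to *Crygf*, and 6 were lens fibre genes that code for no crystallin.

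**Figure D2:**
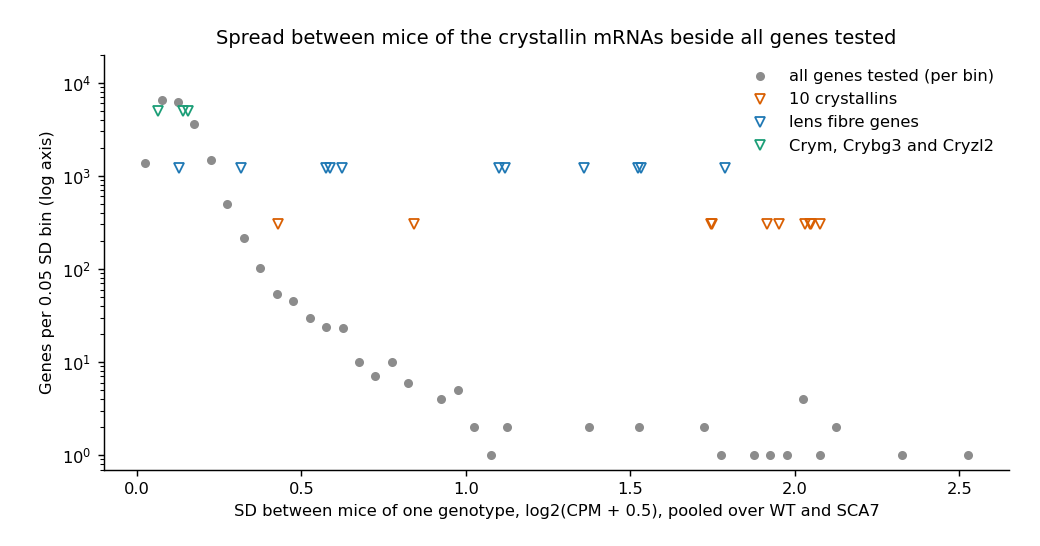
Number of genes (log axis) per bin of 0.05 of the SD between mice of a genotype, on the log2(CPM + 0.5) scale, with the SD of the crystallins, of the lens fibre genes and of 3 crystallin relatives as triangles (their height has no meaning). The crystallins lie between 0.43 (*Crygn*, 1.22 with 0.01 CPM added) and 2.08, to the right of the median of 0.12, and *Crym*, *Crybg3* and *Cryzl2* lie within the bulk of genes.

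For *Cryaa*, *Crybb2* and *Crygs*, which had the highest RPK in WT retina of the alpha, beta and gamma members, the genes of most like pattern were looked up among 14701 genes outside the crystallins. Likeness was the mean absolute difference of log2(CPM + 0.5), centred per gene, over the 7 libraries. The 5 nearest genes of all 3 were the same and in the same order, *Lgsn*, *Bfsp1*, *Mip*, *Bfsp2* and *Grifin*. Their difference from *Cryaa* was between 0.37 and 0.71 on the log2 scale, beside a median of 1.59 over the genes compared. *Bfsp1* and *Bfsp2* code for the beaded filament proteins filensin and phakinin, *Mip* for the lens water channel aquaporin 0, and *Lgsn* and *Grifin* for lengsin and a galectin-related protein, all known as lens fibre proteins. *Bfsp1* was at 4.34, 15.1, 7.90 and 1.499 CPM in WT and at 13.3, 25.7 and 1.66 CPM in SCA7 retina. *Mip* was at 2.02, 6.14, 3.08 and 0.398 CPM in WT and at 4.71, 10.2 and 0.330 CPM in SCA7 retina.

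The whole lens list, the 12 lens fibre genes and *Cryga* to *Crygf*, summed to 13.9 to 175 CPM in WT and to 16.2 to 351 CPM in SCA7 retina. None of its 18 genes was at 0 in all libraries, and 2 of them were at 0 in some library. *Lim2*, which codes for a major fibre cell membrane protein, had 1, 0, 0 and 0 counts in WT and 1, 7 and 0 counts in SCA7 retina, where a count of 0 allows up to 3 counts. *Foxe3*, a transcription factor of the lens epithelium, had at most 2 counts in a library. *Hsf4*, the heat shock factor of lens that retina also expresses, did not follow the crystallins, with 3.46 to 4.56 CPM in WT and 3.16 to 3.33 CPM in SCA7 retina. The part of lens RNA in the crystallin values was not tested.

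Set against *Cryaa* in the same library, several members kept nearly the same level. *Crygs* was between 25.8% and 29.9% of the *Cryaa* count in the 7 libraries, *Cryba4* between 14.4% and 17.4%, *Cryba1* between 38.3% and 46.3% and *Crybb2* between 63.5% and 77.1%, while *Cryaa* itself varied 29.6-fold. *Cryba2* (13.4% to 17.9%), *Crybb1* (6.84% to 11.3%) and *Crybb3* (8.94% to 16.5%) moved somewhat more. *Mip* was between 1.41% and 2.45% of *Cryaa* and *Lgsn* between 3.74% and 6.82%. *Bfsp1* (3.63% to 9.98%), *Bfsp2* (2.63% to 7.06%) and *Grifin* (0.882% to 2.22%) varied more, and all 3 had their highest percent in SCA7 replicate 3, where *Cryaa* was lowest.

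In 2 of the 9 members set against *Cryaa*, the genotypes did not overlap. *Crybb2* was at 65.9%, 66.1%, 63.5% and 67.2% of *Cryaa* in WT and at 70.1%, 72.7% and 77.1% in SCA7 retina, with means of 65.6% ± 1.55 (SD, n = 4) and 73.3% ± 3.51 (SD, n = 3). *Cryba1* was at 38.3%, 39.8%, 40.0% and 38.3% in WT and at 43.1%, 44.2% and 46.3% in SCA7 retina, with means of 39.1% ± 0.91 (SD, n = 4) and 44.5% ± 1.64 (SD, n = 3). Both genes were thus higher in SCA7 than in WT retina per *Cryaa* count, in 3 of 3 SCA7 libraries. Each difference had an exact two-sided permutation p of 0.0286, the smallest possible with 4 WT and 3 SCA7 libraries, without adjustment for the 9 ratios. The comparison was chosen after the values were seen. The same lack of overlap was found for 0.134% of all genes tested when set against *Cryaa*, but a gene that does not follow *Cryaa* takes on its spread in this ratio and separates only by a large difference between the genotypes, as *Gje1* did and *Crym* did not, so the share is no measure of how rare 2 of 9 is. For *Crygs* the means were 27.9% ± 1.66 (SD, n = 4) and 28.0% ± 1.12 (SD, n = 3), with an exact permutation p of 1.

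*Cryab* departed from this constancy. It was 53.1%, 29.4%, 34.4% and 131% of the *Cryaa* count in WT and 32.5%, 28.4% and 207% in SCA7 retina, highest in the libraries where *Cryaa* was lowest. A straight line through the 7 libraries had a slope of 0.224 ± 0.008 (SE) CPM of *Cryab* per CPM of *Cryaa* and an intercept of 27.5 ± 2.12 (SE) CPM, which is 44.8% of the mean of *Cryab* in WT retina. The intercept is the level the line gives at 0 CPM of *Cryaa*. For *Crybb2*, *Cryba1*, *Cryba2*, *Cryba4*, *Crybb1*, *Crybb3* and *Crygs* the intercepts lay between -5.15 and 0.02 CPM and within 1 SE of 0. The 7 points include both genotypes, and the line is a description. *Crygn*, at 0.151% to 0.642% of *Cryaa*, had an intercept of 0.12 ± 0.05 (SE) CPM.

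**Figure D3:**
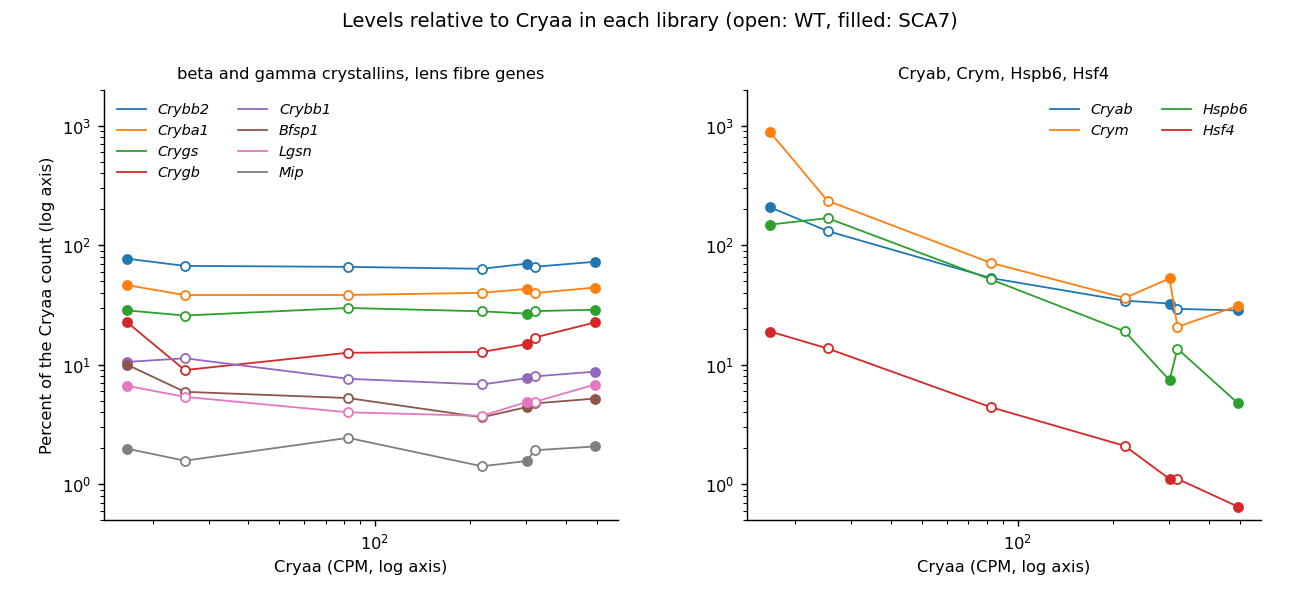
Level of each gene as a percent of the *Cryaa* count in the same library (log axis) against *Cryaa* in CPM (log axis), with WT open and SCA7 filled. On the left *Crybb2*, *Cryba1* and *Crygs* run nearly level, *Crygs* between 25.8% and 29.9%, and *Crygb*, *Crybb1* and the lens fibre genes less so, and on the right *Cryab* falls from 207% to 28.4% while *Hsf4*, *Hspb6* and *Crym* fall further.

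None of the 10 crystallin genes was called different between SCA7 and WT retina, beside 7.91% of all genes tested that were downregulated and 7.47% that were upregulated (15.4% together). None of the 10 had genotypes that did not overlap in CPM, beside 37.5% of all genes. At an unadjusted p under 0.05 the count was also 0 by edgeR, by DESeq2 and by limma-voom. Adjusted p (edgeR's quasi-likelihood test, Benjamini-Hochberg) ran from 0.54 to 0.74. The log2 fold changes were all above 0, with a median of 0.75 beside -0.02 over all genes tested, but their intervals were wide. The log2 fold change of *Cryaa* was 0.75 (standard error 1.29, 95% interval -2.53 to 4.02). That of *Crybb2* was 0.88 (standard error 1.27, interval -2.34 to 4.11) and that of *Crygs* 0.74 (standard error 1.28, interval -2.52 to 3.99). *Cryab*, with the smallest error, had 0.57 (standard error 0.60, interval -0.97 to 2.098). The intervals hold both a fall and a rise of more than 2-fold for the beta crystallins, and the direction rested on SCA7 replicate 2, without which 7 of the 10 estimates were below 0 (-0.40 for *Crygn* to 0.11 for *Cryab*). Without WT replicate 4 and SCA7 replicate 3, the 2 libraries with the least crystallin RNA, 0 of the 10 were called and the log2 fold changes lay between 0.56 and 1.09.

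When the summed level of the lens fibre genes other than *Hsf4* entered the fit as a covariate, chosen after the values were seen, the standard errors fell from between 0.60 and 1.29 to between 0.085 and 0.28. None of the 10 genes was called in this fit, beside 14.8% of all genes. *Cryba4* passed the p threshold without passing the FC limit, at -0.39 on the log2 scale (standard error 0.11, adjusted p = 0.024 by edgeR with Benjamini-Hochberg adjustment, FC 0.765), which is 1 of 10 members beside 25.5% of all genes at an adjusted p under 0.05. *Cryaa* was at -0.34 (standard error 0.14, adjusted p = 0.103), *Crygs* at -0.34 (standard error 0.12, adjusted p = 0.065) and *Cryab* at 0.20 (standard error 0.085, adjusted p = 0.110) by the same edgeR fit. In 9 of the 10 genes the estimate turned from above to below 0, and *Cryab* was the exception.

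**Figure D4:**
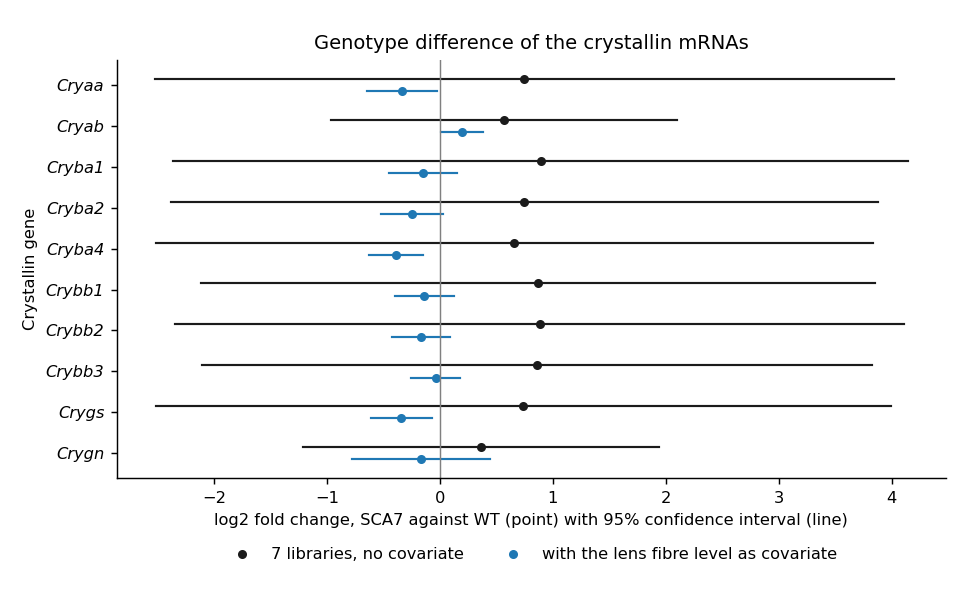
log2 fold change of SCA7 against WT retina (point) with its 95% confidence interval (line) for each crystallin gene, without a covariate in black and with the lens fibre level as covariate in blue. All black intervals hold 0, as from -2.53 to 4.02 for *Cryaa*, and the blue intervals are narrow, as from -0.63 to -0.15 for *Cryba4*.

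Levels of different genes were compared per length, as RPK, for which a count is divided by the size factor of its library (DESeq2) and by the kilobases of the gene's median transcript. In WT retina *Cryaa* (12563 ± 10367 RPK) and *Crybb2* (11103 ± 9196 RPK) came first (SD, n = 4). *Cryab* (5034 RPK), *Cryba1* (4087 RPK), *Crygs* (3583 RPK), *Cryba4* (2440 RPK), *Cryba2* (1939 RPK), *Crybb3* (1308 RPK) and *Crybb1* (1034 RPK) followed, and *Crygn* was last at 47.6 ± 24.6 RPK (SD, n = 4). The ranges of neighbours in this order overlapped between WT mice for all but *Crybb1* and *Crygn*. Within a library the order was steadier, since *Cryba1* exceeded *Crygs*, *Crygs* exceeded *Cryba4* and *Cryba4* exceeded *Cryba2* in 7 of 7 libraries. The first of these depends on the length used, since per kilobase of the union of exons *Crygs* (3583 RPK) lay above *Cryba1* (2763 RPK) in WT retina. *Cryab* exceeded *Cryba1* in 4 of the 7.

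The relatives of the 10 genes did not all share their pattern. Of 14 other genes with crystallin names, all tested, 3 were upregulated and 0 downregulated, beside 7.47% and 7.91% of all genes. Their log2 fold changes had a median of 1.04, beside -0.02 over all genes tested. *Cryga* to *Crygf* had log2 fold changes of 1.05 to 2.01 with standard errors of 1.05 to 1.42, and none of these 6 was called. The 6 genes of the gamma crystallin cluster on chromosome 1, abundant lens structural proteins, followed the members, all 6 highest in SCA7 replicate 2 and lowest in WT replicate 4 and SCA7 replicate 3. *Crygb* was at 10.4, 53.8, 27.8 and 2.28 CPM in WT and at 44.8, 111 and 3.76 CPM in SCA7 retina, and its log2 fold change of 1.17 (standard error 1.36) had an adjusted p of 0.579 by edgeR. *Crygc* was at 16.5 ± 15.4 CPM (SD, n = 4) and 38.8 ± 38.9 CPM (SD, n = 3). Between 24% and 52.3% of the 50-base windows in transcripts of this cluster also occur in another gene. Reads from such windows are not unique to 1 gene, and their effect on the counts was not tested. For 8 of the 10 members 0% of the windows were shared.

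The 3 upregulated relatives carry the name without being lens structural proteins of the beta and gamma type. *Crym*, which codes for mu crystallin, a ketimine reductase that binds thyroid hormone, was at 58.7, 66.1, 78.7 and 59.5 CPM in WT and at 159, 153 and 147 CPM in SCA7 retina. The log2 fold change of 1.22 (standard error 0.09) had an adjusted p of 2.7e-06 by edgeR, and every SCA7 library lay above every WT library. *Crybg3*, a large protein with beta and gamma crystallin domains, was at 25.4 ± 0.92 CPM (SD, n = 4) in the WT and 46.7 ± 2.69 CPM (SD, n = 3) in the SCA7 mice. *Cryzl2*, related to the quinone reductase zeta crystallin, was at 3.19 ± 0.35 CPM (SD, n = 4) in the WT and 6.56 ± 0.76 CPM (SD, n = 3) in the SCA7 mice. Within each genotype these 3 genes did not follow the crystallins, since *Crym* was 147 CPM in SCA7 replicate 3 where *Cryaa* was 16.7 CPM. *Cryzl1* (78.3 ± 8.31 CPM in WT, n = 4, and 62.5 ± 3.40 CPM in SCA7, n = 3, SD) had an adjusted p of 0.011 by edgeR, with every SCA7 library below every WT library, and an FC of 0.798 that stayed above the limit. *Cryz* (23.9 ± 2.74 and 25.8 ± 0.70 CPM) passed neither threshold.

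Of the 12 lens fibre genes, 11 were tested and none was called. Their median log2 fold change was 0.79, near the 0.75 of the 10 crystallins. *Gje1*, a connexin gene known in lens, was listed apart because its change was known when the lists were drawn up. It was at 0.325 to 0.638 CPM in WT and at 10.8, 12.7 and 10.2 CPM in SCA7 retina, nearly the same in SCA7 replicate 2, the library with the most crystallin RNA, and in SCA7 replicate 3, the library with the least.

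The alpha crystallins are small heat shock proteins, and 5 of 7 other members of that family were tested. *Hspb6*, a small heat shock protein best known from muscle, was downregulated, with 42.6, 43.3, 41.3 and 42.6 CPM in WT and 22.3, 23.6 and 24.8 CPM in SCA7 retina (log2 fold change -0.85, standard error 0.06, adjusted p = 1.2e-06 by edgeR). *Hspb8*, which works with BAG3 in clearing misfolded proteins, was at 9.99 ± 2.01 CPM (SD, n = 4) and 10.1 ± 0.67 CPM (SD, n = 3). *Hspb1*, a stress-induced chaperone, was at 3.50, 4.89, 3.88 and 2.81 CPM in WT and at 4.62, 6.57 and 3.45 CPM in SCA7 retina, highest in the library where the crystallins were highest, and did not pass the test. *Hspb2*, whose start lies 1029 bp from that of *Cryab* on the other strand, stayed between 0.356 and 0.551 CPM. The 2 genes overlap, and 19% of the 50-base windows of *Cryab* also lie in *Hspb2* transcripts. For *Cryaa* 8.22% of the windows lie in an antisense transcript. The library kit keeps the strand, and the strand setting of the counting is not given in the sources used here.

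Of 9 heat shock factors and their targets, *Bag3*, the co-chaperone partner of small heat shock proteins, was upregulated, at 2.64 ± 0.30 CPM (SD, n = 4) in the WT and 3.73 ± 0.36 CPM (SD, n = 3) in the SCA7 mice. The log2 fold change of 0.49 (standard error 0.13) had an adjusted p of 0.013 by edgeR, and the call was lost without SCA7 replicate 1. The other 8 were not called, as *Hspa8*, the constitutive HSP70, at 479 ± 64.3 and 506 ± 20.2 CPM and *Hsp90aa1*, an HSP90 gene, at 1053 ± 105 and 821 ± 28.0 CPM in WT and SCA7 retina (SD, n = 4 and n = 3). Of 12 transcription factors known to regulate crystallins in lens, 8 were tested and none was called. *Pax6*, the master regulator of eye development that is also used by amacrine and ganglion cells, was at 222 ± 14.6 CPM (SD, n = 4) and 186 ± 11.7 CPM (SD, n = 3). Its adjusted p was 0.0196 by edgeR, and its FC of 0.839 stayed above the limit. *Prox1*, which horizontal cells also express, was at 144 ± 8.96 CPM (SD, n = 4) and 107 ± 3.40 CPM (SD, n = 3), with an adjusted p of 0.00042 by edgeR and an FC of 0.742 that stayed above the limit. The summed level of these 12 genes was 411 to 463 CPM in WT and 353 to 385 CPM in SCA7 retina, without overlap.

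The nearest protein-coding genes on either side of the crystallins did not share their pattern. These are 16 genes outside the members, 13 of them tested and none called, with a median log2 fold change of 0.06. Their summed level was 371 to 408 CPM in WT and 383 to 390 CPM in SCA7 retina, a range of 1.1-fold where the 10 crystallins ranged 18.4-fold, from 87.0 to 1602 CPM.

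Marker lists of tissues that border the retina, of red blood cells and of Müller glia, the main glia of the retina, were set beside the crystallins. Retinal pigment epithelium genes summed to 103 to 206 CPM in WT and to 20.5 to 51.0 CPM in SCA7 retina, with 3 of 7 downregulated. Red blood cell genes summed to 54.5 to 76.7 and 30.5 to 61.7 CPM, with 1 of 5 downregulated, and cornea, iris and ciliary body genes to 12.98 to 27.6 and 4.92 to 12.4 CPM, with 1 of 6 downregulated. Müller glia genes summed to 4373 to 5247 and 4254 to 4475 CPM, with 1 of 7 upregulated. None of these lists had its highest sum in SCA7 replicate 2, although within SCA7 the red blood cell list (61.7 CPM) and the cornea, iris and ciliary body list (12.4 CPM) were highest there. The sums are carried by a few genes, as *Optc*, an extracellular matrix protein of the eye, gave 22.7 of the 27.6 CPM of the latter list in WT replicate 1, and *Rgr*, *Rpe65* and *Ttr* gave most of the pigment epithelium sums in WT. Single members, looked at after their values were seen, came nearer to the crystallins. *Krt12*, a keratin of the corneal epithelium, was at 0.632, 1.09, 0.656 and 0.413 CPM in WT and at 0.796, 2.17 and 0.525 CPM in SCA7 retina, highest and lowest in the same libraries as the crystallins. *Krt5*, *Krt14* and *Aldh3a1*, also of corneal epithelium, were highest in WT replicate 2. *Tyrp1*, an enzyme of pigment synthesis, was highest in SCA7 replicate 2 (8.67 CPM) and lowest in SCA7 replicate 3 (2.87 CPM). Its level in WT replicate 4 (4.31 CPM) lay above those in WT replicates 1 and 3 (3.47 and 3.34 CPM). *Best1*, at 0.489 to 0.773 CPM, was highest and lowest in the same libraries as the crystallins. *Mlana* was highest in SCA7 replicate 1, *Pmel* in WT replicate 2, and *Rpe65*, *Rgr* and *Ttr* were downregulated. The part of these tissues and cells in the crystallin values was not tested.

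**Figure D5:**
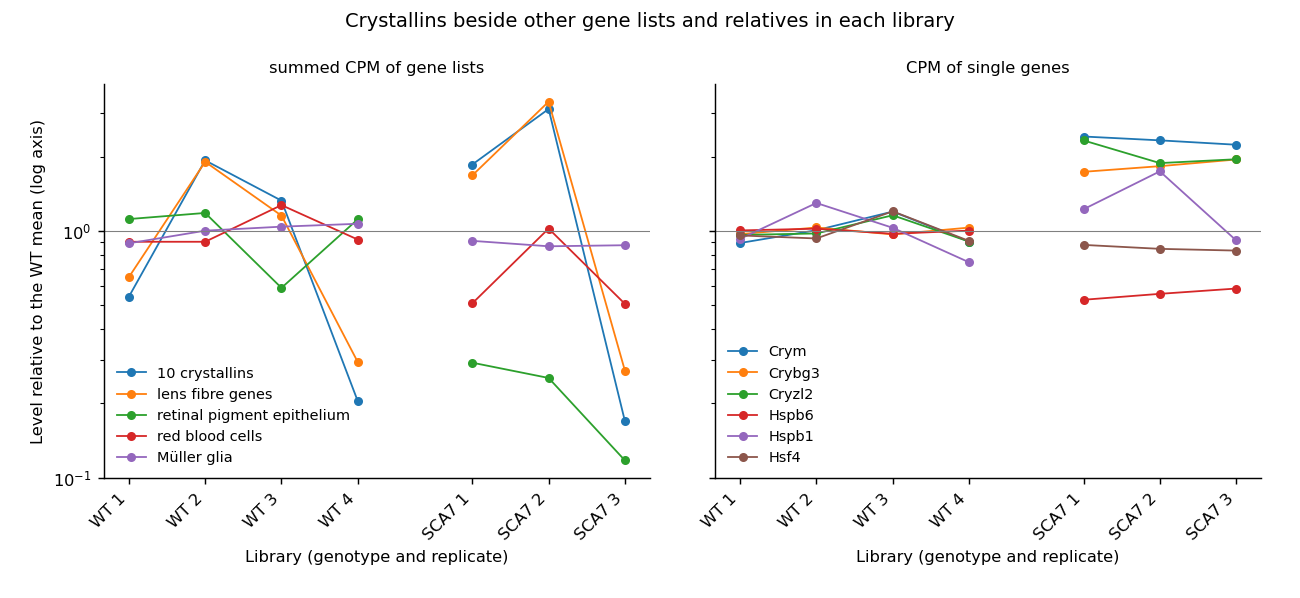
Level in each library relative to the WT mean (log axis), on the left for the summed CPM of gene lists and on the right for single genes. The crystallins and the lens fibre genes run together, from 87.0 to 1602 CPM and from 8.16 to 100.4 CPM in sum, while *Crym*, *Crybg3*, *Cryzl2* and *Hspb6* separate by genotype and vary little within it.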

How the data were processed

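Retina of 7 mice was analysed by total RNA-seq. The authors deposited raw counts per Ensembl gene, whole numbers without normalization; they mapped reads to mm10 with TopHat2 2.0.14 and Bowtie2 2.1.0 and counted them with HTSeq 0.6.1. Names, positions and lengths were taken from GENCODE M21 for 52403 of 52550 genes. The main test was that of edgeR 4.0.16 (filterByExpr, TMM factors, glmQLFit with robust estimation, glmQLFTest) with genotype as the only term, and p-values were adjusted by Benjamini-Hochberg across the whole filtered table. The test was checked on simulated data.

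The members and lists were chosen with earlier results of these data known. Named were all members, neighbours starting within 2000 bp of a member, and the 5 genes of most like pattern to a member. Of each list other than the marker lists of cells and tissues, the called genes and up to 4 others with the highest WT CPM were named. Alternatives were DESeq2 1.42.0, limma-voom 3.58.1, other factors and filters, a replicate block, each library left out and other call limits, and, chosen after the values were seen, a lens fibre covariate, leaving out 2 libraries and ratios to *Cryaa*. *P*-values of single ratios come from exact permutation tests. The single values of 2 genes are not reported here.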

Additional observations from a re-analysis of the deposited data

Results flagged for a closer look

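None of the 10 crystallin genes had a WT library that stood apart. Among 58 genes of the crystallins and their lists tested for this in the 4 WT libraries, 6 had a highest or lowest library whose gap to the next exceeded the 95% critical value of Dixon for 4 samples, where chance gives about 1 in 20 groups. WT replicate 2 stood high for *Crybg1* (0.875 of the range) and *Crybg2* (0.866), relatives with beta and gamma crystallin domains. WT replicate 3 stood high for *Cryl1* (0.973), lambda crystallin, and *Hsf4* (0.835), and low for *Hsf1* (0.881). WT replicate 1 stood high for *Hsf2* (0.883).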

How the results depend on the processing

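The count of crystallin genes called was 0 under all 16 alternative fits and under the other call limits, where the filter of at least 10 counts in every library left 9 of the 10 genes to test, without *Crygn*, and the lowest adjusted p outside the lens fibre covariate was 0.21. Of 159 values for single genes, 138 kept their direction and side of the threshold. The other 21 were below 0. With the lens fibre covariate they were -0.34 for *Cryaa*, -0.15 for *Cryba1*, -0.25 for *Cryba2*, -0.39 for *Cryba4*, -0.14 for *Crybb1*, -0.17 for *Crybb2*, -0.04 for *Crybb3*, -0.34 for *Crygs* and -0.17 for *Crygn*. Leaving out single libraries gave -0.02 to 1.32 for *Cryaa*, -0.11 to 1.3 for *Cryba2*, -0.23 to 1.24 for *Cryba4*, -0.01 to 1.51 for *Crybb1*, -0.06 to 1.43 for *Crybb3*, -0.10 to 1.31 for *Crygs* and -0.40 to 0.88 for *Crygn*, with each lowest value in the fit without SCA7 replicate 2, the library with the most crystallin RNA.

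The titles do not say whether libraries of the same replicate number are paired. The deviations of same-numbered libraries correlated at 0.00672, 0.306 and 0.126 over 20128 genes. Differently numbered libraries were not compared in this way, so these values cannot decide whether the numbers pair the libraries. With the replicate block 1706 genes were downregulated and 1629 upregulated in place of 1592 and 1504. The log2 fold change under the block was -0.11 for *Cryaa*, -0.05 for *Cryba2*, -0.16 for *Cryba4*, -0.12 for *Crygs* and -0.07 for *Crygn*, and 1 lens fibre gene was called.

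Leaving out single libraries gave 0 to 1 called heat shock genes, 0 to 1 regulators, and 0 to 2 neighbour genes (*Dgkg* and *Sik1*), in place of 1, 0 and 0. Upper-quartile factors, DESeq2, and leaving out WT replicate 4 and SCA7 replicate 3 each called 1 neighbour gene. Per union of exons 5 of the 10 genes kept their place in the RPK order, and with 0.01 CPM added the spread of *Crygn* was 1.22. The causes were not tested. With 3 SCA7 mice and a spread of this size, the intervals hold changes of over 2-fold either way for 9 of the 10 genes, all but *Cryab*.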
